A study of Mus musculus with 6 samples.

Results

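The 10 genes described here encode the vertebrate L1 family of adhesion molecules (L1cam, Nrcam, Chl1 and Nfasc) and the contactins (Cntn1, Cntn2, Cntn3, Cntn4, Cntn5 and Cntn6), and were taken by symbol from the 36291 gene rows of the deposited counts. The study asked how Zeb2, the zinc-finger homeobox transcription factor named Sip1 in its title, acts in migrating cortical interneurons. RNA was sequenced from 3 KO and 3 WT libraries of eGFP-positive cells, sorted at E14.5 from the telencephalon of mice of the Swiss strain. The KO libraries came from a Sip1 knockout made with Nkx2-1 Cre, and in both genotypes the sorted cells were labelled as targeted by Nkx2-1-iCre, a recombinase driven in cells that had expressed the ventral forebrain gene Nkx2-1. The labels gave neither the deleted part of Zeb2 nor the number of embryos behind a library. Each genotype has 1 library for each of the numbers K77, K79 and K80.

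L1-family proteins cross the membrane. Their outer part, built of immunoglobulin and fibronectin repeats, binds the same or another adhesion molecule, and their short inner tail binds ankyrin, which links them to the spectrin skeleton. Contactins carry the same kinds of repeats but have no inner part. They are held in the membrane by a lipid anchor and signal through partners in the same membrane, such as the contactin-associated proteins, receptor-type phosphatases and L1-family members. In the developing forebrain these molecules are known for axon growth, bundling and guidance, and for the contact of migrating neurons with the fibres they travel along.

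Zeb2 counts were 2856, 2759 and 3391 in KO K77, K79 and K80, against 6468, 5350 and 8094 in WT K77, K79 and K80, and the gene fell by 1.11 on the log2 scale (SE 0.138, edgeR adjusted p = 0.00116). Reads assigned to genes numbered 8323531 to 11069437 per KO library and 9196406 to 10558698 per WT library. Lhx6, which marks interneurons of the medial ganglionic eminence, stood at 1266, 1006 and 1016 CPM in KO and at 1166, 933 and 1073 CPM in WT, in the order K77, K79, K80 used throughout. CPM is the count scaled to a common library total with TMM factors. One library stood apart by sex-linked transcripts: WT K79 held 26109 counts of Xist and 3 of the Y-linked Ddx3y, whereas the other 5 libraries held 13 to 28 and 532 to 864.

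Cntn5 rose 2.03-fold in KO cells, Cntn4 rose 1.69-fold and Nfasc 1.28-fold, Chl1 fell 1.55-fold, and the other 6 genes were not called. All 10 genes passed the filter on low counts. With edgeR and an adjusted p under 0.05, 3 were higher, 1 was lower and 6 were not called, where 6.27% of all 13835 tested genes were called (3.64% higher and 2.62% lower), and 6.24% of those outside the 10. The KO and WT libraries did not overlap for the same 4 genes, as was the case for 23.2% of all tested genes. The median log2 fold change, KO over WT, was 0.16 for the 10 genes, 0.42 for the contactins and 0.11 for the L1 family, against -0.01 for all tested genes. The contactin median counts scarce and abundant genes alike. The summed level of the contactins did not rise apart from WT, at 313 to 326 CPM in KO and 252 to 404 CPM in WT. Cntn2 took 66.0 to 72.1% of the contactin counts in KO and 65.2 to 83.5% in WT, so this sum mostly follows Cntn2. These RNAs come from bulk samples, in which fewer cells of a type and less RNA per cell cannot be told apart.

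**Figure D1:**
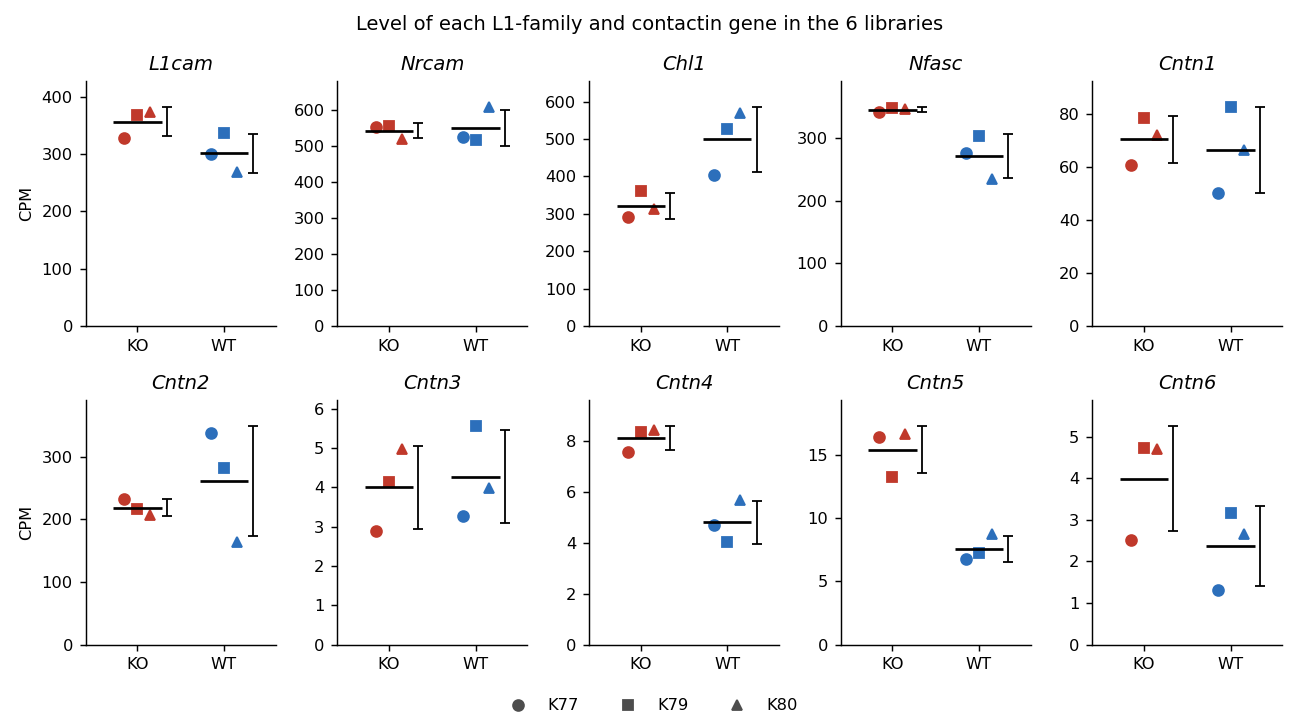
Level in CPM (vertical axes, from 0) of each of the 10 genes in the KO and WT libraries. Symbols give the K number, bars the mean and whiskers the SD of 3 libraries. Chl1 lies lower, and Nfasc, Cntn4 and Cntn5 higher, in every KO library than in every WT library.

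Chl1, the close homologue of L1 and a gene studied for neuron migration and axon guidance, was the member that fell. Its level was 291, 360.1 and 313 CPM in KO and 403, 525 and 569 CPM in WT. The highest KO library thus lay below the lowest WT library. The means were 322 ± 35.1 CPM in KO and 499 ± 85.9 CPM in WT (SD, n = 3 each). Its log2 fold change was -0.63 (SE 0.122, edgeR adjusted p = 0.0127), and the call was lost without KO K80 (adjusted p = 0.0742). Within the numbered pairs the log2 ratio of KO over WT was -0.47 for K77, -0.54 for K79 and -0.86 for K80. The authors' deposited table gave Chl1 a log2 fold change of -0.64 with an adjusted p of 4.35e-11. Its sign is not separate evidence, since the direction of that table was set by the calls it shared with edgeR. That table called 5.54% of its rows with a p-value, and of the 10 genes the same 4 as edgeR.

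Nfasc encodes neurofascin, which gathers sodium channels and ankyrin at the axon initial segment and at nodes of Ranvier. It stood at 342, 349 and 347 CPM in KO and at 277, 303 and 234 CPM in WT. The KO libraries lay close together (346 ± 3.58 CPM) and above each WT library (271 ± 34.8 CPM). It rose by 0.35 on the log2 scale (SE 0.0861, edgeR adjusted p = 0.0402). That call was lost without WT K77, WT K80 or any 1 KO library (adjusted p 0.0605 to 0.15), with a log2 fold change of 0.25 to 0.44 over the 6 libraries left out in turn. In the authors' deposited table its adjusted p was 0.00307.

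L1cam, the founding member, promotes axon outgrowth and forms a receptor complex with neuropilin. Its level was 328, 368 and 373 CPM in KO and 301, 336 and 268 CPM in WT. The ranges overlap, since WT K79 was above KO K77. The log2 fold change was 0.24 (SE 0.0876, 95% interval 0.05 to 0.44) with an edgeR adjusted p of 0.161. L1cam lies on the X chromosome, and WT K79, the library with Xist, had the highest L1cam level of the WT libraries. Without it L1cam was called higher (log2 fold change 0.33, adjusted p = 0.0385), while without both K79 libraries the edgeR adjusted p was 0.127, and a part of sex in this was not tested. In GENCODE M21 100 exon bases of L1cam are shared with Arhgap4 on the same strand.

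Nrcam, which guides axons and clusters channels at nodes, had 552, 556 and 519 CPM in KO and 525, 518 and 608 CPM in WT. The genotypes overlapped. The log2 fold change of -0.02 had a 95% interval of -0.18 to 0.14 (edgeR adjusted p = 0.918).

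The shares of Chl1, Nfasc and L1cam in the L1-family counts differed between the genotypes, while the summed levels overlapped. The summed level of the 4 genes was 1513 to 1633 CPM in KO and 1506 to 1683 CPM in WT. Chl1 took 19.3, 22.05 and 20.2% of the L1-family counts in KO, against 26.8, 31.2 and 33.9% in WT. Nfasc took 21.3 to 22.6% in KO and 14.0 to 18.4% in WT. L1cam took 21.6 to 24.1% in KO and 16.0 to 19.99% in WT, so that in these shares neither gene's KO and WT libraries overlapped. The shares of 1 library add to the whole, so a lower share of Chl1 raises the others. Nrcam took 33.4 to 36.5% in KO and 30.8 to 36.2% in WT.

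**Figure D2:**
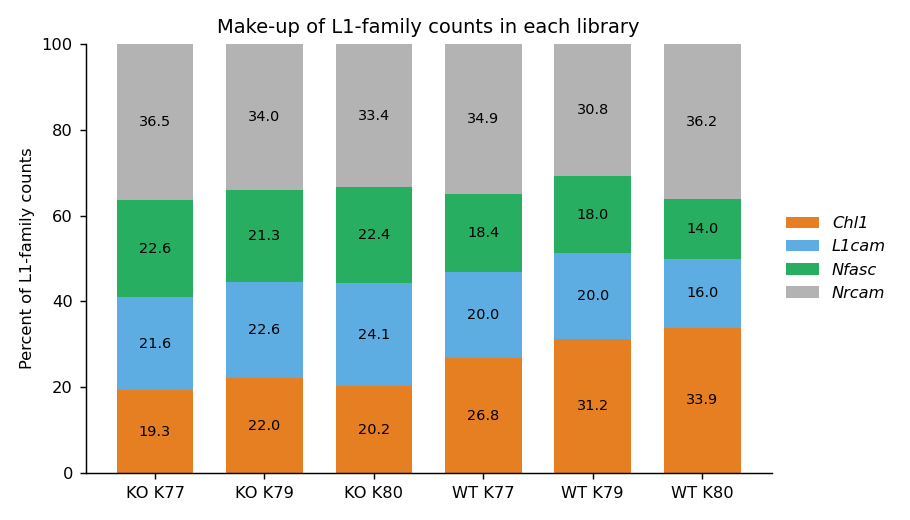
Percent of the counts of the 4 L1-family genes taken by each gene (stacked bars, numbers inside the bars) in the KO and WT libraries. Chl1 takes 19.3 to 22.05% in KO libraries and 26.8 to 33.9% in WT libraries.

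Among the contactins the abundant genes were not called. Cntn2, also known as TAG-1, is carried by axons of early cortical neurons and has been studied as a surface on which interneurons migrate. It stood at 233, 217 and 207 CPM in KO and at 337, 281 and 164 CPM in WT. The WT libraries lay on both sides of the KO libraries, and WT K80 was lower than each KO library. Its log2 fold change was -0.25 (SE 0.202, edgeR adjusted p = 0.582), with a 95% interval of -0.70 to 0.20. Without WT K80 the gene was called lower (-0.50, adjusted p = 0.0109).

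Markers of cortical glutamatergic neurons, another cell type that could be in the sort, followed the same order over the WT libraries as Cntn2. The summed level of the 10 marker genes was 343, 267 and 299.98 CPM in KO and 512, 381 and 237 CPM in WT. Over the KO libraries the order differed, with K79 lowest for the markers and K80 lowest for Cntn2. All 10 were tested, and edgeR, DESeq2 and limma voom each called 0 of them, 1 having an unadjusted p under 0.05, while without WT K80 edgeR called 2 lower. The 2 with the lowest p were Emx1 (log2 fold change -0.58, adjusted p = 0.256) and Neurod6 (-0.39, adjusted p = 0.307). Their part in the Cntn2 level was not tested.

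Cntn1, also called F3, joins contactin-associated protein at the junctions of axon and myelin. Its level was 60.8, 78.6 and 71.9 CPM in KO and 50.4, 82.5 and 66.4 CPM in WT. The genotypes overlapped, with K77 the lowest and K79 the highest library of each. Cntn1 had a log2 fold change of 0.08 (95% interval -0.27 to 0.44, edgeR adjusted p = 0.842).

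Cntn5, known as NB-2 and studied in the auditory pathway, was the member that rose most. Its counts were 136, 134 and 183 in KO and 62, 75 and 92 in WT. In CPM these are 16.4, 13.2 and 16.6 in KO and 6.76, 7.20 and 8.73 in WT, so the lowest KO library lay above the highest WT library. The fold change was 2.03, or 1.02 on the log2 scale (SE 0.156, 95% interval 0.67 to 1.37, edgeR adjusted p = 0.00381). The pairs gave 1.21 for K77, 0.83 for K79 and 0.89 for K80 in log2. It kept its call without any 1 library (adjusted p 0.00532 to 0.027). In the GENCODE M21 annotation of GRCm38 a non-member gene on the opposite strand, Gm32710, shares 290 bases with Cntn5 exons, and strand use in the counting was not given in the sources used here, so reads in those bases cannot be assigned to either gene.

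Cntn4, also called BIG-2 and known from the targeting of olfactory axons, rose as well. It had 63, 85 and 93 counts in KO and 43, 42 and 60 in WT. In CPM the libraries were 7.58, 8.39 and 8.43 in KO and 4.69, 4.03 and 5.70 in WT, with no overlap. The log2 fold change was 0.76 (SE 0.178, edgeR adjusted p = 0.0336). The call was lost with DESeq2 (adjusted p = 0.0612), without both K79 libraries (0.202), and without any 1 library but WT K80 (0.0536 to 0.139), while its sign stayed the same.

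Cntn6, or NB-3, lies between Chl1 and Cntn4 in the gene order of chromosome 6. It had 21, 48 and 52 counts in KO and 12, 33 and 28 in WT, or 2.53, 4.74 and 4.71 CPM in KO and 1.31, 3.17 and 2.66 CPM in WT. KO K77 lay among the WT libraries. The log2 fold change of 0.75 was close to that of Cntn4 but with an SE of 0.340 and a 95% interval of -0.01 to 1.51 it was not called (edgeR adjusted p = 0.279). Within the pairs Cntn6 was higher in KO each time, by 0.74, 0.51 and 0.72 in log2 for K77, K79 and K80.

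Cntn3, or BIG-1, was scarce in both genotypes, with 24, 42 and 55 counts in KO and 30, 58 and 42 in WT. At 2.89 to 4.99 CPM in KO and 3.27 to 5.57 CPM in WT the libraries overlapped. The log2 fold change was -0.08 (95% interval -0.68 to 0.51, edgeR adjusted p = 0.915), a range too wide to show a change of the size seen in Nfasc. In the RefSeq gene order of GRCm38.p6, Cntn3, Chl1, Cntn6 and Cntn4 follow each other as protein-coding genes of chromosome 6, and their log2 fold changes in that order were -0.08, -0.63, 0.75 and 0.76.

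**Figure D3:**
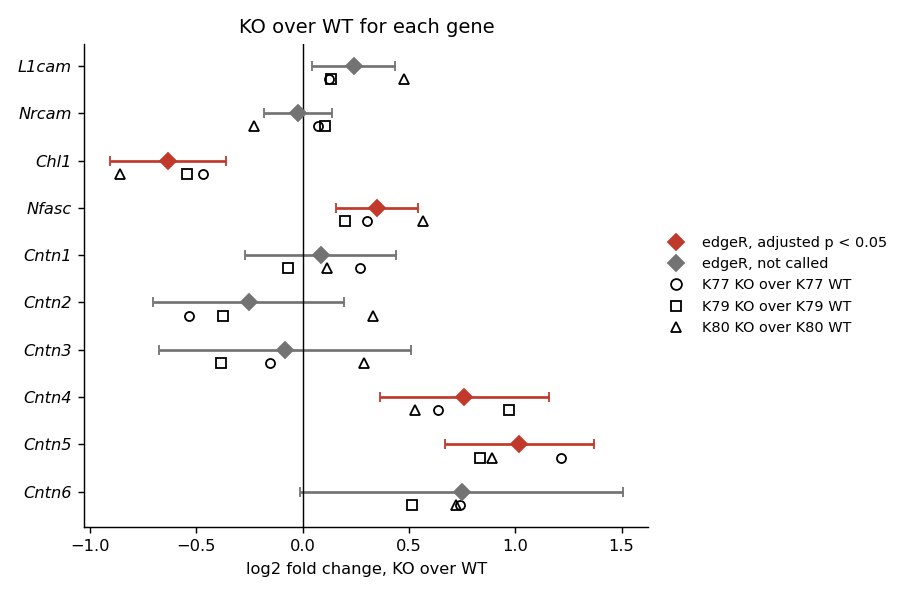
Log2 fold change, KO over WT, of each of the 10 genes (diamonds, with 95% intervals from the edgeR fit; red where called), and the log2 ratio within each numbered pair (open symbols). Chl1 is below 0 in each pair, and L1cam, Nfasc, Cntn4, Cntn5 and Cntn6 are above 0 in each pair.

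Over the pairs, 5 members were higher in KO each time, 1 was lower each time and 4 had both signs, while 44.4% of all tested genes had 1 sign in the 3 pairs. With the K number as a block, edgeR called the same 4 members, and 1463 of all genes (10.6%) in place of 867. Blocked adjusted p-values were 0.0656 for L1cam and 0.0661 for Cntn6.

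Levels of different genes were set side by side as CPM per kilobase of the longest transcript in GENCODE M21. In KO cells Nrcam was highest (86.4 ± 3.28), followed by L1cam (69.5 ± 4.91), Chl1 (42.5 ± 4.64), Nfasc (35.5 ± 0.368), Cntn2 (29.8 ± 1.79), Cntn1 (12.4 ± 1.58), Cntn5 (3.67 ± 0.448), Cntn4 (1.55 ± 0.0916), Cntn6 (1.08 ± 0.343) and Cntn3 (0.757 ± 0.200), each SD with n = 3. Neighbours in that order did not overlap between libraries except Cntn6 and Cntn3. In WT cells the order was Nrcam (87.7 ± 7.96), Chl1 (66.0 ± 11.4), L1cam (58.9 ± 6.65), Cntn2 (35.6 ± 12.04), Nfasc (27.9 ± 3.57), Cntn1 (11.7 ± 2.84), Cntn5 (1.80 ± 0.247), Cntn4 (0.913 ± 0.159), Cntn3 (0.808 ± 0.222) and Cntn6 (0.642 ± 0.259). The WT libraries of Chl1 and L1cam, of Cntn2 and Nfasc, and of Cntn4, Cntn3 and Cntn6 as neighbours overlapped. With exon bases merged over all transcripts as the length, L1cam (48.5) came before Nrcam (40.6) in KO. In WT, L1cam (41.1) then came before Chl1 (40.6), and Cntn3 (0.635) before Cntn4 (0.566). With the longest coding length Cntn2 (83.6) came before L1cam (79.9) in WT and Cntn3 before Cntn6 in KO, and the KO libraries of L1cam, Chl1 and Nfasc overlapped as neighbours, so that the order of close neighbours depends on the length used.

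**Figure D4:**
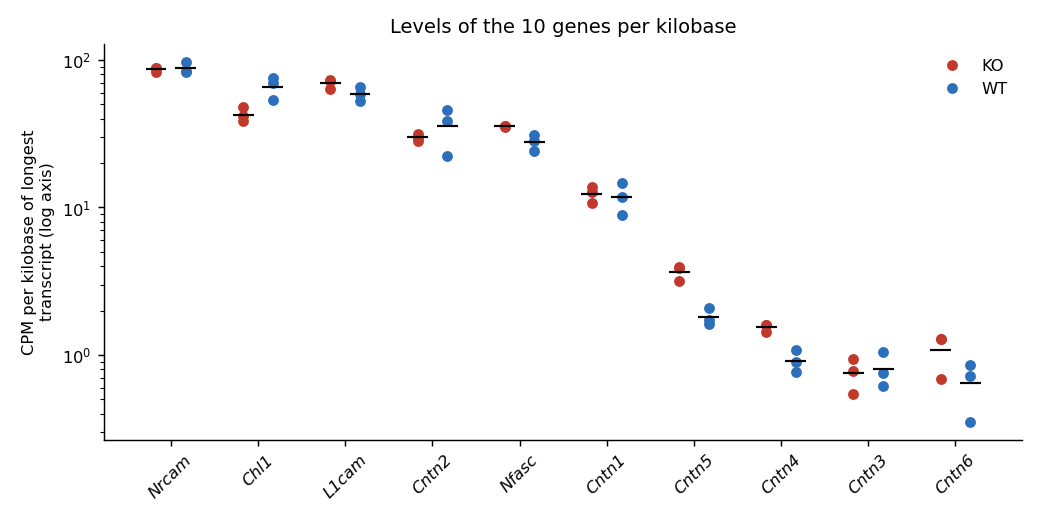
CPM per kilobase of the longest transcript (log axis) for the 10 genes, with KO and WT libraries as points and the mean of 3 as a bar. In both genotypes the L1-family genes and Cntn2 lie above Cntn1, and Cntn3, Cntn4, Cntn5 and Cntn6 lie below it.

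The promoter windows of Cntn5 and Chl1, the member that rose most and the one that fell, are shown because Zeb2 is known to bind CACCT sequences, often in pairs and often as CACCTG. Each window runs from 250 bases before to 50 after a RefSeq start (build GRCm38.p6), 5′ to 3′ on the gene's strand, and capitals mark CACCTG. The Cntn5 window is chr9:10904677-10904976, minus strand, and the Chl1 window is chr6:103510626-103510925, plus strand.
Cntn5: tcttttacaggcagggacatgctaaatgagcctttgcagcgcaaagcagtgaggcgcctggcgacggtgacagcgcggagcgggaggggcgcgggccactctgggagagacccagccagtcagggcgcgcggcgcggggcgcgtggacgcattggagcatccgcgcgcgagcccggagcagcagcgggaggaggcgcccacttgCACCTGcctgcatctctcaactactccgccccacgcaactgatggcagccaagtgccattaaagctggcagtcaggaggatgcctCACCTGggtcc
Chl1: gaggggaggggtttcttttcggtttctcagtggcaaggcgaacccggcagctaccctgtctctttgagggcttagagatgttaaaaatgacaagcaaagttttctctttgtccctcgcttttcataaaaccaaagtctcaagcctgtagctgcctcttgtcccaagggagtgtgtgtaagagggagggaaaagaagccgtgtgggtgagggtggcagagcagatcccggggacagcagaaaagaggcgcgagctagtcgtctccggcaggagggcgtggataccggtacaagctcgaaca

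In this Cntn5 window CACCTG begins 46 bases before the start and again at base 40 after it, and an overlapping window of a second Cntn5 start holds the first of these alone. The Chl1 window holds neither CACCTG nor CACCT on either strand, and the same is true of the Nfasc and Cntn4 windows. In a search of both strands, so also for CAGGTG, the motif CACCTG was in 3 of the 16 windows of the 10 genes (Cntn5 and Nrcam), and in 20.2% of all 32851 windows. The shorter CACCT, which CACCTG contains, was in 7 of the 16 windows (Cntn5, Nrcam, Cntn1 and L1cam) and in 51.9% of all. A match describes letters in these windows and does not show binding.

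Partners of contactins in the same membrane included genes called either way. Among 14 partners edgeR called 2 higher and 1 lower and left 11 uncalled (median log2 fold change 0.03), against 3 higher and 2 lower with the block. Over all tested genes edgeR called 6.27%, and 10.6% with the block, shares to set beside each list count below. Cntnap2, encoding the contactin-associated protein that pairs with Cntn2, stood at 147, 159 and 160.4 CPM in KO and 82.0, 110 and 89.4 CPM in WT, and rose by 0.73 (SE 0.0981, edgeR adjusted p = 0.00176). Its relative Cntnap4, which has been studied at interneuron synapses, had 49.5, 47.1 and 52.1 CPM in KO and 127, 95.6 and 155 CPM in WT, a log2 fold change of -1.34. The KO libraries of both genes lay apart from WT, in opposite directions. Ptprg, a receptor phosphatase whose outer part binds several contactins, including those encoded by Cntn4 and Cntn5, had 163, 189 and 163 CPM in KO and 78.6, 110 and 73.8 CPM in WT (log2 fold change 0.97, edgeR adjusted p = 0.00203).

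Of 8 tested genes for matrix and soluble ligands, 1 rose, 1 fell and 6 were not called. Ptn, the heparin-binding growth factor pleiotrophin, rose by 0.36 (106 ± 0.391 CPM in KO and 82.4 ± 1.502 CPM in WT, edgeR adjusted p = 0.00406). Sema3a, the repellent sensed by neuropilin with L1cam, fell by 1.03 on the log2 scale to 28.4 ± 3.14 CPM in KO, against 58.2 ± 14.0 CPM in WT (adjusted p = 0.00383).

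Cytoplasmic linkers of the L1 family were mostly not called, with 1 of 13 higher and 12 not called by edgeR, against 2 higher and 2 lower with the block, and 2 lower also with DESeq2. In the unblocked fit the called gene was Ank3, encoding ankyrin-G, which binds neurofascin and Nrcam at the axon initial segment. It had 378, 423 and 409 CPM in KO and 316, 338 and 344 CPM in WT (log2 fold change 0.28, SE 0.0639, edgeR adjusted p = 0.0307), and the call was lost without KO K79, KO K80, WT K77 or both K79 libraries (adjusted p up to 0.144). Of 15 co-receptors and signalling partners 1 rose and 1 fell, against 2 and 1 with the block. The neuropilin gene Nrp2 stood at 336 ± 36.8 CPM in KO and 225 ± 54.1 CPM in WT (log2 fold change 0.58, adjusted p = 0.0461), a call lost with DESeq2 (adjusted p = 0.106) and without KO K79, KO K80, WT K77 or WT K80 (up to 0.192). The other neuropilin gene of the list, Nrp1, stood at 137 ± 21.6 CPM in KO and 88.8 ± 30.8 CPM in WT, with overlapping libraries. It was not called in the unblocked fit (log2 fold change 0.63, edgeR adjusted p = 0.117). The growth factor receptor gene Egfr fell to 2.47 ± 1.04 CPM in KO, against 7.34 ± 0.166 CPM in WT.

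Proteases that cut L1-family proteins, the sheddases and gamma-secretase subunits, gave 0 calls among 8 tested with edgeR, DESeq2 or limma voom, although 1 had an unadjusted p under 0.05. The lowest p-values were those of Psen2 (log2 fold change 0.49, adjusted p = 0.191) and Psenen (0.38, adjusted p = 0.364).

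Other adhesion molecules of the immunoglobulin superfamily were called higher in 10 of 33 cases and lower in 1, with 22 not called (median log2 fold change 0.26), against 15 higher and 2 lower with the block. The list was written with results of these data known, and it was given no test as a list. Over all tested genes 3.64% were higher and 2.62% lower, and 10.6% were called with the block. Sdk2, a sidekick gene of synaptic layer matching in the retina, rose by 1.29 to 43.2 ± 4.37 CPM in KO, against 17.7 ± 4.41 CPM in WT. Lsamp, encoding a limbic adhesion protein held by a lipid anchor like the contactins, rose by 1.01 to 148 ± 19.99 CPM in KO, against 73.3 ± 10.6 CPM in WT. Kirrel3 rose by 0.72 to 103 ± 4.24 CPM in KO, against 62.2 ± 6.44 CPM in WT. Dscaml1 fell by 0.95 to 92.7 ± 4.32 CPM in KO, against 179 ± 21.3 CPM in WT. Over the 6 lists of partners and other adhesion genes, 15 of 91 tested genes were higher, 4 were lower and 72 were not called. That was 20.9% called, against 6.27% of all tested genes. With the block 23 were higher and 8 lower, where 10.6% of all tested genes were called.

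**Figure D5:**
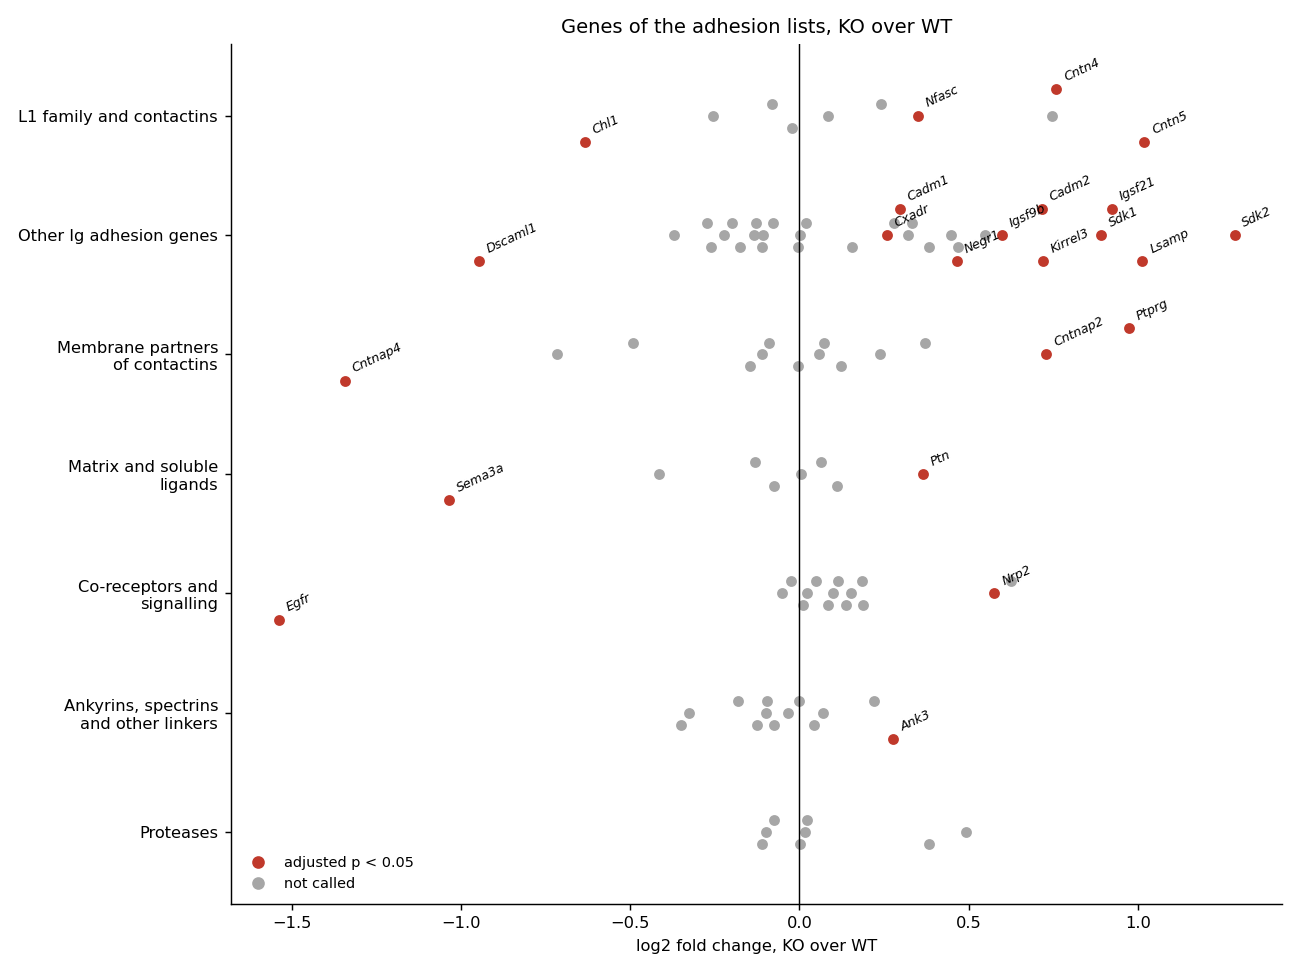
Log2 fold change, KO over WT, of the 10 genes (top row) and of the tested genes of 6 lists of partners and other adhesion molecules, each point 1 gene and red where edgeR called it. In the row of other immunoglobulin adhesion genes 10 red points lie above 0 and 1 below.

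Markers of other cells were read beside these values, and their calls beside the 6.27% of all tested genes called by edgeR. Of 10 genes listed for oligodendrocyte precursors, cells which also carry contactins and L1-family proteins, 5 fell, 1 rose and 4 were not called. Their summed level was 168 to 173 CPM in KO and 189 to 216 CPM in WT. Pdgfra stood at 8.53 ± 2.54 CPM in KO and 41.1 ± 1.46 CPM in WT. Gpr17 stood at 0.479 ± 0.115 CPM in KO and 8.20 ± 1.71 CPM in WT, and Olig1 at 5.59 ± 0.379 CPM in KO and 19.6 ± 0.941 CPM in WT. Mbp rose by 0.78 to 95.7 ± 5.22 CPM in KO, against 55.6 ± 5.72 CPM in WT. Mbp thus held a large part of the summed level, and its rise offset the falls in that sum. The sum therefore does not follow the 5 genes that fell, and the cells behind the Mbp reads were not tested. The part of these cells in the fall of Chl1 was not tested. Of 9 tested markers of postmitotic neurons Gap43 rose (0.60, a call lost without KO K79, KO K80, WT K77 or WT K80), Rbfox3 fell (-0.46) and 7 were not called (1 higher and 2 lower with the block), with 5497 to 5842 CPM summed in KO and 5705 to 7066 CPM in WT. The 10 progenitor markers summed to 1821 to 2206 CPM in KO and 2027 to 2533 CPM in WT.

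Of 14 interneuron lineage markers, 3 rose, 5 fell and 6 were not called, with 6569 to 7564 CPM summed in KO and 6098 to 7452 CPM in WT. Maf (-3.07) and Cxcr4 (-3.02) fell and Gad2 rose (0.56), in log2 fold change. Blood vessel and meningeal markers summed to 30.6 to 47.0 CPM in KO and 26.9 to 48.2 CPM in WT, with 0 of 11 called by edgeR, DESeq2 or limma voom and 1 at an unadjusted p under 0.05. Their lowest p-values were those of Col1a2 (1.33, adjusted p = 0.154, and 0.0221 with the block) and Dcn (0.90, adjusted p = 0.298). Microglial genes summed to 3.54 to 4.33 CPM in KO and 3.74 to 5.23 CPM in WT, and the 1 tested, Csf1r (-1.001), was not called. Erythroid genes summed to 9.79 to 23.3 CPM in KO and 17.8 to 30.7 CPM in WT, with Hba-a1 and Hba-a2 at 0 in every library and 0 of 4 tested genes called by edgeR, DESeq2 or limma voom, and 0 at an unadjusted p under 0.05. Among them Hbb-y (-1.04) had a blocked adjusted p of 0.0217, and Hbb-b1 stood at -0.41 (adjusted p = 0.563).

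The 3 tested genes whose profile over the 6 libraries lay nearest to that of Cntn5 were Lingo4, Mettl11b and Lrrn1, at a root mean square distance of 0.06, 0.09 and 0.12 on the log2 scale of CPM with a pseudocount of 0.5, after each gene was centred on its own mean. Lrrn1, a transmembrane protein with leucine-rich repeats, stood at 391, 331 and 381 CPM in KO and 202, 180.1 and 199.9 CPM in WT. Mettl11b had 14.4, 11.5 and 13.1 CPM in KO and 5.12, 6.53 and 6.74 CPM in WT, and Lingo4 3.73, 2.96 and 3.99 CPM in KO and 1.31, 1.34 and 1.61 CPM in WT. Genes chosen by this likeness differ between KO and WT as Cntn5 does, so no test of them is given.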

How the data were processed

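Unnormalized read counts for every gene were deposited for each library, and the series table held the same counts in all 36291 rows. Build mm9 and the tools DESeq 1.2.2, HTSeq 0.5.3p3 and TopHat 1.2.0 were listed without role or order, per the submitters' processing notes, and the annotation was not given in the sources used here. A deposited table by the authors held, per the file headers, p-values, a log2 and a linear fold ratio, mean normalized signal and a variance score for groups A and B; it was read as KO over WT because all 777 calls shared with edgeR had the same sign. Rows naming no gene (no feature 19.7 to 21.8%, ambiguous 1.94 to 1.99%) were left out.

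KO was compared with WT in R 4.3.3 with edgeR 4.0.16 (TMM, filterByExpr with minimum count 10, quasi-likelihood test, Benjamini-Hochberg adjustment at 0.05 over 13835 genes), and no set test was run. The SE is the log2 fold change over the square root of F. Alternatives used RLE scaling, DESeq2 1.42.0, limma voom 3.58.1, other filters, a block and left-out libraries.

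Same-numbered KO and WT libraries deviated from their group means together (correlation across genes 0.256, 0.197 and 0.175 for K77, K79 and K80). The numbers were therefore used to pair them in the within-pair ratios and in the fit with a block. The main fit left the number out, so its fold changes, SEs, intervals and adjusted p-values are unpaired. Libraries of unlike number gave -0.176 to -0.0094. Centring each group on its own mean ties these correlations to each other, and the labels do not say what the number stands for. Separate embryos per library were not stated in the labels, so the p-values cover spread among these libraries. Gene counts of same-genotype libraries were compared by chi-square, divided by its degrees of freedom. The result was 3.63 to 4.49 between KO libraries and 5.79 to 10.13 between WT libraries. WT K79 also held 26109 counts of Xist, against 22 in WT K77 and 16 in WT K80. The source of this spread was not tested. The 10 genes, the gene lists and the rule for named genes (all members, per list the 4 called genes of lowest p at most, or 2 genes if there was no call, and 3 nearest profiles) were chosen with earlier results of these data known. Lhx6, Xist and Ddx3y were added as checks, and Nrp1 was added beside Nrp2. Within-pair ratios used a pseudocount of 0.5 CPM. RefSeq promoter windows (GRCm38.p6) were matched by symbol for all 10 genes. Some marker genes that the rule names are not reported here. Reads were not analysed here.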

Additional observations from a re-analysis of the deposited data

How the results depend on the processing

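Cntn5 kept its sign and call under all 13 alternatives, and Chl1 under all but the one without KO K80. Over all genes 504 were higher and 363 lower, against 848 and 615 with the replicate block and 546 lower with no filter on low counts; leaving out each library in turn gave 270 (without KO K80) to 645 higher and 175 (without KO K80) to 399 lower. Among the 10 genes the left-out libraries gave 1 to 3 higher and 0 to 2 lower, where the block changed no call of a member. In the 6 lists 15 were higher and 4 lower, against 23 and 8 with the block, 8 lower with DESeq2 or no filter, and 10 to 21 higher and 4 to 7 lower (7 without WT K79) over the left-out libraries.

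Cntn4 lost its call with DESeq2 (0.76) and without both K79 libraries (0.63). Over the left-out libraries its log2 fold change was 0.64 to 0.90, that of Cntn5 0.95 to 1.13, of Nfasc 0.25 to 0.44, of Chl1 -0.77 to -0.53, of L1cam 0.16 to 0.33, of Cntn6 0.47 to 1.00 and of Cntn2 -0.50 to -0.027. The sign of members not called could turn: Cntn1 was -0.078 without WT K77 and -0.0040 without KO K79 (range -0.078 to 0.27), Nrcam 0.054 without WT K80 and 0.0090 without KO K80 (-0.064 to 0.054), and Cntn3 0.090 without KO K77, 0.15 without WT K79 (-0.28 to 0.15) and 0.14 without both K79 libraries. The cause of these turns was not tested, and each of these fits holds fewer libraries. Another gene length moved 33 of 40 levels per kilobase by more than 1 SD, which follows from the length itself. Counts of 12 to 58 per library limit Cntn3 and Cntn6.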

Other observations

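For each of the 10 genes the coefficient of variation was larger between WT than between KO libraries, which was the case for 57.3% of all tested genes. The median coefficient of variation of the 10 genes was 8.99% in KO and 17.3% in WT, against 8.02% in KO and 9.05% in WT over all tested genes. The genes share these 3 WT libraries, so they are not independent of each other in this.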
